A study of Homo sapiens with 6 samples.

Results

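The peaks described here are those of 2 RIP-seq experiments on the splicing factor SF3B4 that fall within 5 stretches of human chromosome 11 rich in olfactory receptor genes. A peak was taken as a member when it overlapped chr11:4380000-5240000 (window 1), chr11:5340000-6230000 (window 2), chr11:55000000-56600000 (window 3), chr11:57800000-59300000 (window 4) or chr11:123600000-124500000 (window 5), all in hg19. The windows add up to 5.75 Mb and hold 233 of the 181131 deposited peaks. The rule uses positions only, and none of the 233 peaks crossed a window edge. In RIP-seq (RNA immunoprecipitation and sequencing), an antibody pulls down a protein and the RNA that comes with it is sequenced. The cells were wild-type HEK293T, a human line derived from embryonic kidney, and each experiment (RIP-1 and RIP-2) comprised an anti-SF3B4, an IgG and an input library. The peak lists are the only values here, with 1 mRNA list and 1 NotExon list (called the non-exon list below) per experiment, so no list has a replicate error. Library depth is unknown, and IgG and input have no values of their own here beyond their role in the authors' peak calls. Intervals below cover the counting error of peaks alone, and peaks that lie near each other are not independent.

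Olfactory receptors are membrane receptors for odorants, made mainly by sensory neurons of the nose. Their genes form tandem clusters, mostly have a coding sequence in a single exon, include many pseudogenes, and are known to be silent in most other cells. SF3B4 belongs to the SF3b complex of the U2 snRNP, which recognises the branch site of an intron early in splicing. In the RefSeq gene table (GRCh38.p14, used for names and gene order only), 376 of 875 olfactory receptor symbols lay on chromosome 11. Of these, 171 were protein coding and 205 were pseudogenes. When the protein-coding genes and receptor symbols of the chromosome were read in order, 305 of the 376 stood in 11 runs of 10 or more receptors. Other genes separate these runs. The run from OR51F5P to OR51V1 ends at HBB, the adult beta-globin gene, and the next long run starts after HBE1, the embryonic one. The run from OR52U1P to OR52W1 follows TRIM22, an antiviral gene induced by interferon. The run that ends with OR5B21 is followed by LPXN, an adaptor of focal adhesions, and the run that starts with OR5AN2P follows MPEG1, a pore-forming gene of macrophages. VWA5A separates a pair of runs. Since that table is of another build, no gene was assigned to a peak, and expression of the receptors was not measured here. The windows are whole stretches set by position, and genes of other families inside them were not left out. A member peak therefore need not lie in or near a receptor gene.

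The windows held fewer peaks per Mb than the rest of chromosome 11 in 3 of the 4 lists, while for the mRNA list of RIP-2 the interval of the ratio included 1. RIP-1 had 24 non-exon peaks and 6 mRNA-list peaks in the windows, and RIP-2 had 176 and 27. The peak numbers that the caller gave ran on without a gap inside every window of both experiments, so the lists account for each call made there. The map of the members by position shows them scattered over the windows, with long empty stretches in RIP-1.

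**Figure D1:**
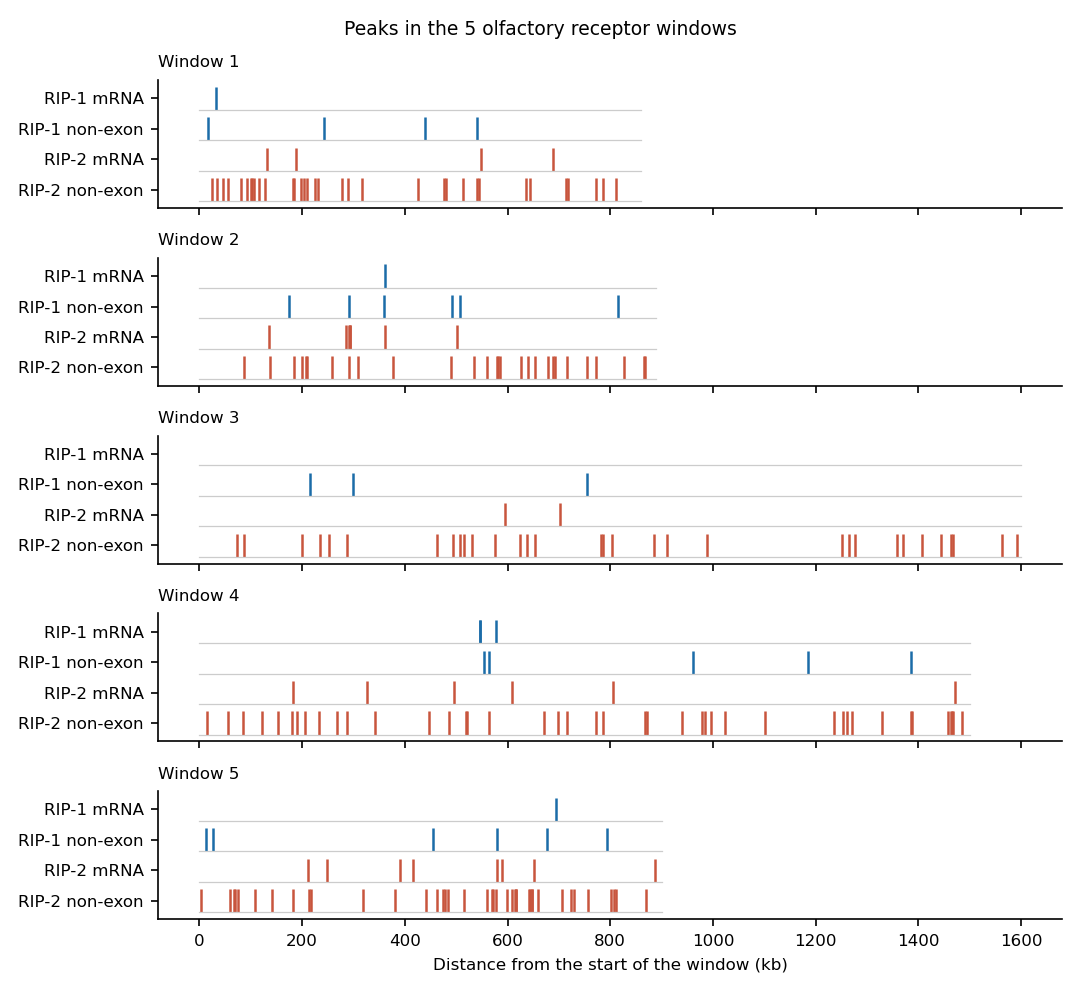
Midpoints of the 233 member peaks as vertical ticks, by distance in kb from the start of each window, with 1 lane for each list of RIP-1 (blue) and RIP-2 (red). The grey lines give the length of each window; RIP-1 has 24 non-exon and 6 mRNA-list ticks, RIP-2 has 176 and 27, and window 3 has no RIP-1 mRNA-list tick.

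In RIP-1, the non-exon list had 4.17 peaks per Mb in the windows (exact Poisson 95% interval 2.67 to 6.21) and 8.56 in the rest of chromosome 11 (8.06 to 9.08). The ratio was 0.488 (exact 95% interval 0.311 to 0.729). In RIP-2, the non-exon list had 30.6 peaks per Mb in the windows (26.3 to 35.5) and 42.9 in the rest of the chromosome (41.7 to 44.0), a ratio of 0.714 (0.611 to 0.830). Both intervals of the ratio lie below 1. The RIP-1 mRNA list had 1.04 peaks per Mb in the windows (0.383 to 2.27) against 3.63 (3.31 to 3.98), a ratio of 0.287 (0.105 to 0.630). The RIP-2 mRNA list had 4.70 per Mb (3.09 to 6.83) against 3.58 (3.26 to 3.92), a ratio of 1.31 with an interval of 0.855 to 1.93 that includes 1. Leaving out each window in turn gave 1.09 to 1.68 for the last ratio. The highest, with an interval of 1.08 to 2.52, came from leaving out window 3, the sparsest window in that list. Leaving out any other window gave an interval that included 1, so no excess was shown. The density was thus below the mean of the rest of the chromosome for both RIP-1 lists and for the RIP-2 non-exon list. Such values are common among single bins of 1 Mb along the chromosome, and these intervals leave out that regional variation. A single bin is shorter than the 5.75 Mb pooled here and can vary more. How often DNA of that total length would be as sparse was not computed. Of 135 bins of 1 Mb on chromosome 11, 43 lay below the density of the windows in the RIP-1 non-exon list (31.9%), 34 in the RIP-2 non-exon list (25.2%), 57 in the RIP-1 mRNA list (42.2%) and 90 in the RIP-2 mRNA list (66.7%). In the RIP-1 mRNA list the median was 2 peaks both for the 6 bins centred in the windows and for the other 129. Those 6 bins run past the window edges, and the fullest held 10 peaks, more than the 6 peaks of all windows. Their median therefore counts peaks outside the windows and is not a value of the windows alone.

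The surplus of RIP-2 peaks over RIP-1 peaks was larger in the windows than in the rest of the chromosome. The RIP-2 mRNA list held 4.5 times as many peaks as that of RIP-1 inside the windows and 0.985 times as many outside. For the non-exon lists the factors were 7.33 and 5.01, and the chromosome 13 stretch described below had 11.6. These are counts of separate calls of unknown depth, and the difference between the factors was not tested. Of the 30 RIP-1 peaks in the windows, 6 stood in the mRNA list (20%, Wilson 95% interval 9.51 to 37.3) as did 469 of 1574 in the rest of the chromosome (29.8%, 27.6 to 32.1), against 29.8% of the whole RIP-1 call. In RIP-2 it was 27 of 203 (13.3%, 9.30 to 18.7) and 462 of 5995 (7.71%, 7.06 to 8.41), against 7.12% of the whole call. So the share was above that of the rest of the chromosome in RIP-2, with intervals that do not overlap, and in RIP-1 it was lower with intervals that do. Within 1 Mb of the windows the RIP-2 share was 10.1% (7.51 to 13.5), an interval that overlaps that of the windows.

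Around the windows, DNA within 1 Mb of an edge gave a nearer comparison. Before window 3 this DNA includes part of the widest stretch without a peak, chr11:51591471-54855041, which was left in its length. That lowers the densities of the DNA within 1 Mb and raises the ratios of the windows to it. These flanks had 7.95 non-exon peaks per Mb for RIP-1 and 48.8 for RIP-2, and the windows had 0.525 times (0.312 to 0.859) and 0.628 times (0.521 to 0.754) as many. For the mRNA lists the flanks had 4.52 per Mb for RIP-1 and 5.48 for RIP-2. The windows had 0.231 times (0.0791 to 0.558) and 0.857 times (0.506 to 1.43) as many, and the RIP-2 interval includes 1. The gene-poor stretch of chromosome 13 from 60 to 84 Mb differed from the windows. It had 8.04 non-exon peaks per Mb for RIP-1 and 93.2 for RIP-2, and the windows had 0.519 (0.325 to 0.796) and 0.328 (0.280 to 0.383) times these densities. It also had 1.29 mRNA-list peaks per Mb in each experiment, and the windows had 0.808 times as many in RIP-1 (0.276 to 1.97) but 3.64 times as many in RIP-2 (2.09 to 6.29). Against the gene-dense first 20 Mb of chromosome 19, the windows had 0.0634 times the mRNA-list density in RIP-1 (0.0231 to 0.140) and 0.894 times in RIP-2 (0.563 to 1.38). For the non-exon lists the ratios to that region were 0.273 in RIP-1 (0.172 to 0.414) and 1.06 in RIP-2 (0.891 to 1.26), so the RIP-2 non-exon list was not shown to be sparser in the windows than there.

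**Figure D2:**
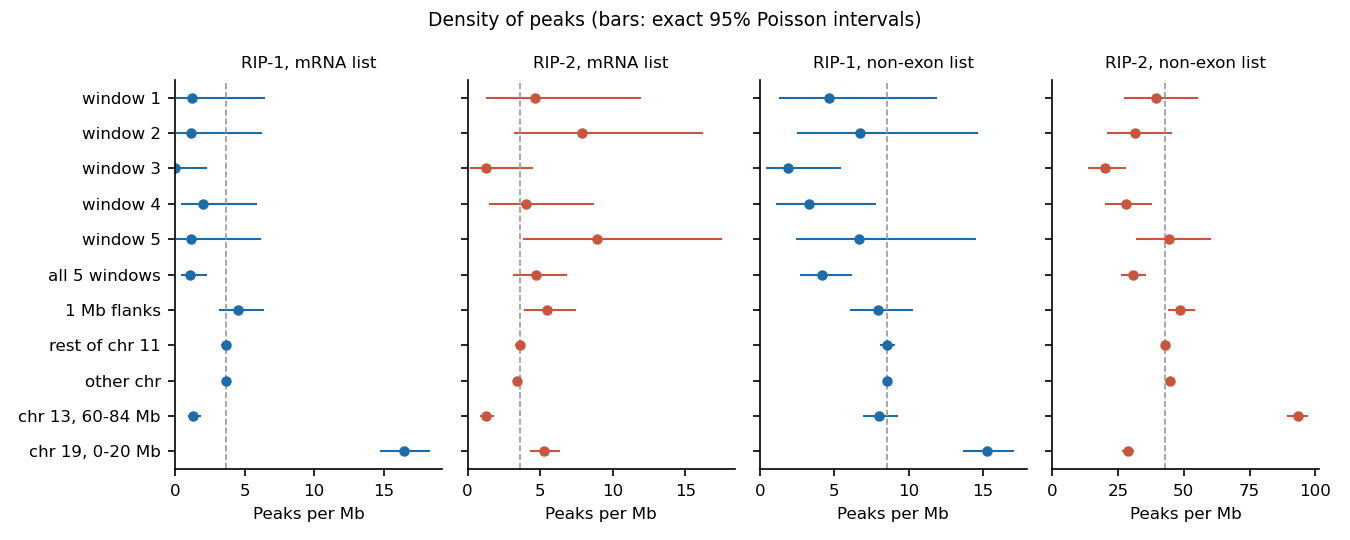
Peaks per Mb (horizontal axis, from 0) in each window, in all 5 windows, in the DNA within 1 Mb of them, and in reference regions, for the 4 lists; bars are exact 95% Poisson intervals and the dashed line is the rest of chromosome 11. For all 5 windows, RIP-1 stands left of the line in both lists, and RIP-2 stands left of it in the non-exon list (30.6 against 42.9) and right of it in the mRNA list (4.70 against 3.58).

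Among the windows, window 3, on the long arm next to the centromere, was the sparsest in every list. It had 3 RIP-1 non-exon peaks (1.88 per Mb, 0.387 to 5.48) and 32 in RIP-2 (20 per Mb, 13.7 to 28.2). Its RIP-1 mRNA list had 0 peaks (exact interval 0 to 2.31 per Mb; a floor of 3 counts would be 1.88 per Mb), and its RIP-2 mRNA list had 2 (1.25 per Mb, 0.151 to 4.52). The densest was window 5 for RIP-2, with 40 non-exon peaks (44.4 per Mb, 31.8 to 60.5) and 8 mRNA-list peaks (8.89 per Mb, 3.84 to 17.5). These values are 1.04 (0.740 to 1.41) and 2.48 (1.07 to 4.93) times those of the rest of chromosome 11. Window 1 had 34 RIP-2 non-exon peaks (39.5 per Mb) and window 2 had 28 (31.5 per Mb). Window 4 had 42 (28.0 per Mb). For RIP-2 non-exon peaks the order from low to high was thus windows 3, 4, 2, 1 and 5, and the intervals of each neighbouring pair overlap.

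On a finer scale, the empty stretches were longer in RIP-1. Of the bins of 100 kb centred in the windows, 39 of 57 held no RIP-1 non-exon peak (68.4%), against 678 of 1292 bins in the rest of the chromosome (52.5%). For RIP-2, 5 of 57 were empty (8.77%) against 96 of 1292 (7.43%). Bins without an mRNA-list peak numbered 53 of 57 in RIP-1 (93.0%, against 79.7% elsewhere) and 36 of 57 in RIP-2 (63.2%, against 80.0%). The median gap between neighbouring RIP-1 peaks of either list was 99.3 kb in the windows and 28.8 kb outside, and in RIP-2 it was 16.3 kb and 10.9 kb. The widest gaps inside a window lay in window 3, at 456 kb for RIP-1 and 261 kb for RIP-2.

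The 33 mRNA-list segments in the windows were mostly long for these lists. Each carries a strand, and its position is printed as the list has it, to within 1 bp. The score printed with each is the authors', behaves as 10 times the negative log10 of the caller's p-value, and starts at a floor of 50. The RIP-2 segments had a median width of 478 bp, against 158 bp in the rest of chromosome 11. Of the 27, 18 were at least 400 bp wide (66.7%, 47.8 to 81.4), against 104 of 462 in the rest of the chromosome (22.5%, 18.9 to 26.5). In RIP-1 the median was 467.5 bp against 260 bp, and 4 of 6 were at least 400 bp wide (66.7%, 30.0 to 90.3) against 182 of 469 (38.8%, 34.5 to 43.3). The limit of 400 bp was chosen after the widths were seen. The median scores of the segments were 68.6 in RIP-1 (78.5 outside) and 82.0 in RIP-2 (81.5 outside). Their highest scores were 142 and 275, whereas the rest of chromosome 11 reached 2594 and 423.

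**Figure D3:**
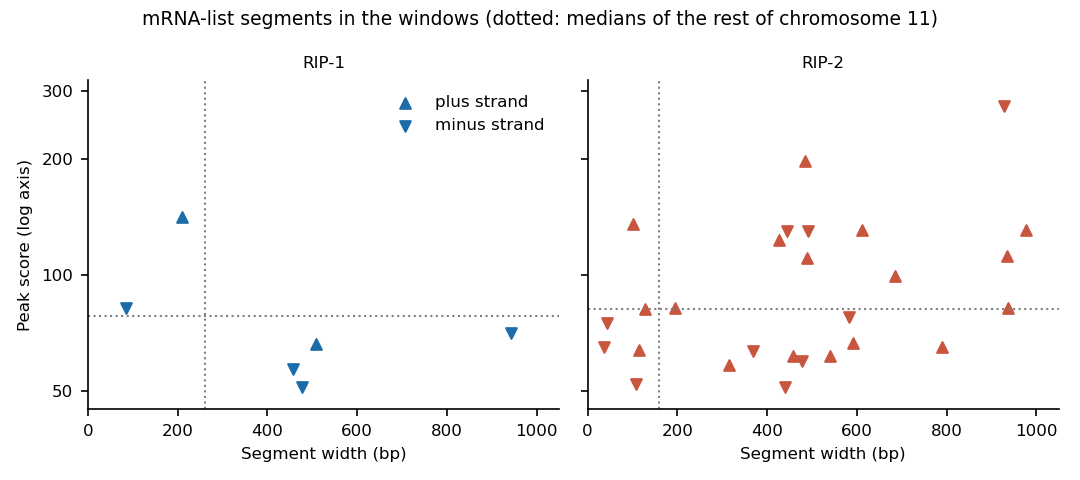
Width in bp (horizontal axis) and score (vertical log axis) of the mRNA-list segments in the windows, 6 for RIP-1 and 27 for RIP-2; triangles point up for the plus and down for the minus strand, and dotted lines are the medians of the rest of chromosome 11. Most RIP-2 segments lie right of the median width of 158 bp, and 4 of them are at least 900 bp wide.

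In window 1, the RIP-1 segment was chr11:4411231-4411688 on the minus strand (457 bp, score 57.3). The RIP-2 list had 4 segments there, all on the plus strand. They were chr11:4510452-4511138 (686 bp, score 99.6), chr11:4566877-4567334 (457 bp, score 61.9), chr11:4928841-4929453 (612 bp, score 131) and chr11:5067755-5068295 (540 bp, score 61.6). No segment of window 1 was found in both experiments.

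Window 2 held the single mRNA-list segment that both experiments shared. It was chr11:5700990-5701468 on the minus strand, identical at both ends in the 2 lists, and 478 bp wide. Whether these ends are those of the 2 calls or of an exon was not tested, so they do not show that the calls matched exactly. Its RIP-1 score was 51.5 (rank 10532 of 10960) and its RIP-2 score 59.97 (rank 8077 of 10280), both close to the floor. RIP-2 also had a tight group of 4 plus-strand segments within 9394 bp. They were chr11:5624475-5624965 (490 bp, score 111), chr11:5631374-5631475 (101 bp, score 136), chr11:5632700-5633015 (315 bp, score 58.5) and chr11:5633443-5633869 (426 bp, score 123). The other plus-strand segments of RIP-2 were chr11:5474637-5475571 (934 bp, score 112) and chr11:5841543-5842027 (484 bp, score 198).

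In window 3, RIP-2 had chr11:55595038-55595630 on the plus strand (592 bp, score 66.6) and chr11:55702931-55703371 on the minus strand (440 bp, score 51.2). RIP-1 had none there. Window 4 held 3 of the 6 RIP-1 segments, of which 2 were close together. A minus-strand segment at chr11:58345628-58345712 (84 bp, score 82.0) lay 874 bp before a plus-strand segment at chr11:58346586-58347095 (509 bp, score 66.5), so the 2 point away from each other. The third, chr11:58377302-58377512 on the plus strand (210 bp), had the highest RIP-1 score of the windows, 142. RIP-2 had no segment at these places. Its 6 segments in window 4 were chr11:57982405-57983195 (plus, 790 bp, score 65.3), chr11:58125675-58126043 (minus, 368 bp, score 63.8), chr11:58294704-58295196 (minus, 492 bp, score 130), chr11:58407898-58407941 (minus, 43 bp, score 75.02), chr11:58605733-58605841 (minus, 108 bp, score 52.3) and chr11:59271048-59271984 (plus, 936 bp, score 82.3).

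Window 5 held the strongest segment of all, chr11:124179707-124180636 on the minus strand in RIP-2. It was 929 bp wide, scored 275 and ranked 212 of 10280 in its list. A RIP-1 non-exon peak, chr11:124178826-124179449 (score 86.7, fold enrichment 6.22), ended 258 bp before it, so the 2 calls are neighbours without overlap. The other RIP-2 segments were chr11:123810367-123811344 (plus, 977 bp, score 131), chr11:123847805-123848388 (minus, 583 bp, score 77.8), chr11:123989681-123989796 (plus, 115 bp, score 63.9), chr11:124015943-124016070 (plus, 127 bp, score 82.0), chr11:124189133-124189578 (minus, 445 bp, score 130), chr11:124252290-124252327 (minus, 37 bp, score 65.3) and chr11:124487169-124487363 (plus, 194 bp, score 82.3). The RIP-1 segment of the window was chr11:124293847-124294789 on the minus strand (942 bp, score 70.8). Over all windows the plus strand carried 17 of 27 RIP-2 segments (63.0%, 44.2 to 78.5) and 2 of 6 in RIP-1 (33.3%, 9.68 to 70.0). Both intervals include the share of the rest of the chromosome, 54.3% in RIP-2 and 53.1% in RIP-1.

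The widest segments reached 942 bp in RIP-1, with widths of 929, 934, 936 and 977 bp at the top of RIP-2. Segments of at least 900 bp, a limit also chosen after the widths were seen, made up 4 of 27 in RIP-2 (14.8%, 5.92 to 32.5), against 27 of 462 in the rest of the chromosome (5.84%, 4.05 to 8.37), and the intervals overlap. Whether any of these segments is a receptor exon was not tested, since no annotation of hg19 was used here.

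Few of the member peaks were called in both experiments. For the mRNA lists, 1 of 6 RIP-1 segments overlapped a RIP-2 segment (16.7%, 3.01 to 56.4), where 6.41% of the whole RIP-1 list did. In the other direction, 1 of 27 RIP-2 segments (3.70%, 0.657 to 18.3) overlapped a RIP-1 segment, where 6.91% of the list did. For the non-exon lists, 3 of 24 members from RIP-1 touched a RIP-2 one (12.5%, 4.34 to 31.0), against 18.1% over the whole list. Of the RIP-2 non-exon peaks, 3 of 176 did (1.70%, 0.581 to 4.89), against 3.63%. Each of these shares has an interval that includes the value of its list, so no difference from it was detectable with so few peaks. Of the 3 shared RIP-1 non-exon peaks, 2 lay in window 4. Without that window the shares were 5.26% for RIP-1 and 0.746% for RIP-2, both inside the intervals given above. No member of an mRNA list overlapped a non-exon peak of the other experiment, which 0.173% of RIP-1 and 0.214% of RIP-2 mRNA-list peaks did over the whole lists. Likewise 0 non-exon members overlapped an mRNA-list segment of the other experiment, which 0.0853% of RIP-1 and 0.0142% of RIP-2 non-exon peaks did.

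There were 3 shared non-exon pairs. In window 2, the RIP-1 peak chr11:5630158-5630849 (fold enrichment 5.41) contained the RIP-2 peak chr11:5630489-5630793 (fold enrichment 6.63), which lies among the 4 close plus-strand segments of RIP-2. In window 4, chr11:58363060-58364676 of RIP-1 (fold enrichment 5.05) shared 873 bp with chr11:58363042-58363932 of RIP-2 (fold enrichment 12.9, score 153), a place between the RIP-1 segments of that window. The other pair of window 4 was chr11:59185644-59186048 in RIP-1 (fold enrichment 7.46) and chr11:59185451-59185879 in RIP-2 (fold enrichment 7.23), with 236 bp in common. With those that overlap included, 6 of 24 RIP-1 non-exon members had a RIP-2 peak of either list within 1 kb (25%, of which 3 overlapped), against 305 of 1105 in the rest of the chromosome (27.6%, of which 201 overlapped). Of the RIP-2 non-exon members, 5 of 176 had a RIP-1 peak within 1 kb (2.84%, 3 overlapping), against 339 of 5533 (6.13%, 206 overlapping). The median distance to the nearest peak of the other experiment was longer in the windows in both directions, 8.42 kb against 4.79 kb from RIP-1 and 51.4 kb against 27.1 kb from RIP-2. The windows also held fewer peaks per Mb to be near to, and these differences were not tested.

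The non-exon members were narrow and, in RIP-1, weak in score. RIP-1 members had a median width of 579.5 bp, against 723 bp in the rest of chromosome 11, and RIP-2 members 517 bp against 560 bp. The median score in RIP-1 was 60.4 (quartiles 55.4 and 67.2), against 67.3 outside (56.7 and 86.9), and 6 of the 24 peaks reached the median score of their list. In RIP-2 the medians were 78.5 and 79.9, and 83 of the 176 reached the median of the list. The authors' fold enrichment over their control was not shown to be lower or higher than outside. Its median was 7.05 in RIP-1 (interval 6.22 to 7.85), against 6.53 outside. In RIP-2 it was 8.67 (interval 8.19 to 8.67), against 8.19 outside. Both intervals include the outside median, that of RIP-2 at its lower end. The RIP-2 median was 8.19 with windows shortened by 50 kb at each end and without window 2. Leaving out any other window gave 8.43 or 8.67. By the false discovery rate (FDR) that the lists give in percent, 0 RIP-1 members were at 5% or less, where 0.678% of the list was, and all 24 stood at 100%, as did 94.1% of the list. In RIP-2, 0 members were at 5% or less, as in the whole list (0%), the lowest was 68.4%, and 68 of 176 stood at 100% (38.6%, 31.8 to 46.0), against 41.6% of the list. Among the RIP-2 members the FDR tended to rise with the score. It was 68.4% at a score of 50.2, 99.6% at 89.0 and 100% at the highest scores, so 100% did not mark the weakest peaks.

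The RIP-1 non-exon member with the highest fold enrichment was chr11:124276195-124277030 in window 5, with 12.3 and a score of 114. It was followed by chr11:4919837-4920492 in window 1 (fold enrichment 9.95, score 82.0) and chr11:58984890-58985447 in window 4 (9.12, score 111). Next came 8.29 at chr11:4622025-4622650, chr11:4819316-4819918 and chr11:123626138-123626858, then 7.85 at chr11:58353406-58354236. The value 7.46 was shared by chr11:5831188-5831859, chr11:124054529-124055118 and chr11:59185644-59186048, the last of which overlapped a RIP-2 peak. In RIP-2 the highest was chr11:4460166-4460679 in window 1, with 18.3 and a score of 211. A value of 16.4 was reached by chr11:6094553-6095424 in window 2, by chr11:124208727-124209496 and by chr11:124258751-124259146, both in window 5. The next were 14.9 at chr11:59266488-59267065, 14.8 at chr11:5425586-5426123, 14.45 at chr11:5598520-5599021 and at chr11:124401974-124402586, and 14.0 at chr11:57952774-57953146. For rank 10, 5 peaks tied at 13.5, namely chr11:4855462-4855862, chr11:5097510-5097945, chr11:55086535-55087066, chr11:58796531-58797179 and chr11:123675606-123675982. All of these RIP-2 peaks with the highest fold enrichment stood at an FDR of 100%, as did 41.6% of the whole list. Their scores were 128 or more, and in RIP-2 an FDR of 100% went with high scores. It is therefore no separate result about these peaks. None overlapped a RIP-1 non-exon peak, which 3.63% of the whole list did, so so few peaks show no difference in overlap. The rest of chromosome 11 reached 32.0 for RIP-1 and 33.7 for RIP-2.

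The fold values of the members recurred at evenly spaced levels, and did so more often in the windows than in the regions compared below. In RIP-1 the value 7.05 occurred 4 times among 24 peaks, and in RIP-2 the value 7.71 occurred 24 times and 8.67 occurred 20 times among 176. Among spacings from 0.3 to 0.6, the one whose whole multiples took in most values of the whole list, with a tolerance of 0.006, was 0.4144 for RIP-1 and 0.4818 for RIP-2. Evenly spread values would fall on it in 2.90% and 2.49% of cases. In RIP-1, 18 of 24 non-exon members lay on the step (75%, 55.1 to 88.0), against 328 of 1105 peaks in the rest of the chromosome (29.7%, 27.1 to 32.4) and 31.9% of the whole list. In RIP-2, 156 of 176 did (88.6%, 83.1 to 92.5), against 3900 of 5533 (70.5%, 69.3 to 71.7) and 68.7%. The intervals of windows and rest do not overlap in either experiment. They leave out regional variation along the chromosome, and the share in the DNA within 1 Mb of the windows was not computed. Whether the trait is particular to the windows was therefore not tested. The gene-poor stretch of chromosome 13 had 23.3% for RIP-1 and 62.3% for RIP-2, and the first 20 Mb of chromosome 19 had 17.6% and 63.8%, so neither reached the level of the receptor windows.

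**Figure D4:**
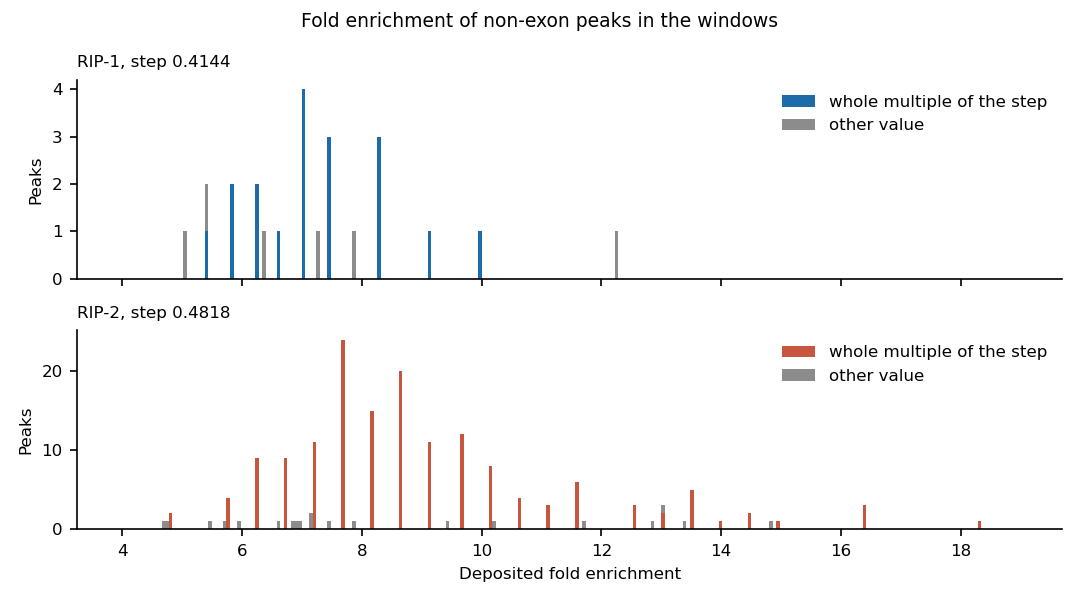
Histogram of the deposited fold enrichment (horizontal axis) of the 24 RIP-1 and 176 RIP-2 non-exon peaks in the windows; colour marks whole multiples of the step of 0.4144 or 0.4818, grey marks other values. Most peaks stand on evenly spaced columns, 18 of 24 in RIP-1 and 156 of 176 in RIP-2.

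The members on the step lay between multiples of 13 and 24 in RIP-1, with a median of 17, and between 10 and 38 in RIP-2, with a median of 18. The median multiple was 18 in both whole lists. In window 3, 3 of 3 RIP-1 and 30 of 32 RIP-2 peaks were on the step, and in window 1, 4 of 4 and 30 of 34 were. Window 4 had the lowest RIP-1 value, 2 of 5, and 37 of 42 in RIP-2. The peaks off the step included 4 of the 6 that form shared pairs, among 26 of all 200 non-exon members. Those 4 make up the pair inside the group of close segments in window 2 and the pair between the RIP-1 segments in window 4. By experiment they are 2 of 3 shared peaks in each. Over the whole lists 31.9% of RIP-1 and 68.7% of RIP-2 peaks lay on the step. Whether shared peaks differ from others in this was not tested. The search for steps was made after the lists were seen.

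**Figure D5:**
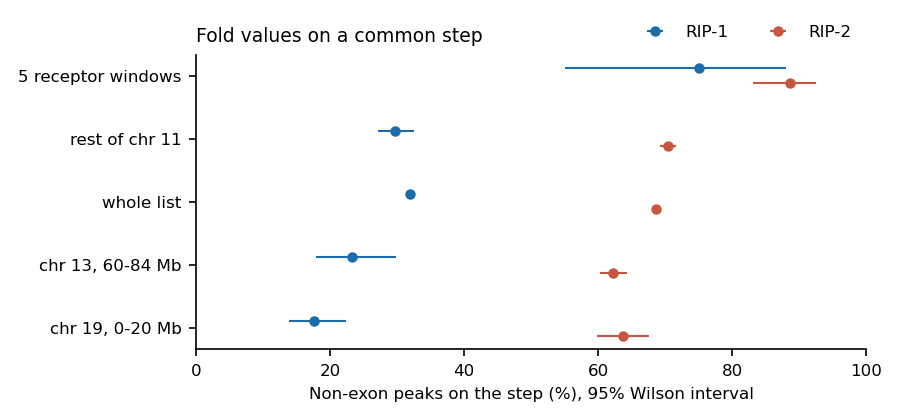
Percent of non-exon peaks whose fold enrichment is a whole multiple of the step (horizontal axis, 0 to 100), for RIP-1 (blue) and RIP-2 (red) in the windows and in 4 comparison sets; bars are 95% Wilson intervals. The windows stand right of every other set in each experiment, at 75% and 88.6%.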

How the data were processed

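The 4 peak lists of HEK293T RIP-seq comprised 1 mRNA and 1 non-exon list per experiment. The submitters' processing notes name HISAT2 2.0.4, cutadapt 1.9.3 and hg19; the sources used here do not give the peak caller's version and settings, nor which library was its control. The lists have no header. The deposited score, the deposited fold enrichment (a ratio over the control) and the deposited FDR in percent were identified from column order and values; the authors called peaks per experiment, not on pooled libraries. The depth of each library is unknown, so precision was set by the number of peaks.

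Membership was any overlap with a window. Regional lengths run from the first to the last peak of a chromosome. Non-exon ends were counted as included, mRNA-list ends as not. Peaks were shared at 1 bp of overlap, on the same strand for the mRNA lists. Intervals are 95% exact Poisson (densities), exact conditional binomial (density ratios), Wilson (shares) or taken from the ranked values (median fold enrichments). No test was made, since each list is a single call. Overlap and interval code was checked on simulated data. Python 3.11.15, pandas 2.3.3 and SciPy 1.17.1 were used. The peaks named were all mRNA-list members, the 10 non-exon members of highest fold enrichment per experiment with ties, and all shared pairs; any non-exon member at an FDR of 5% or less would have been named too. The windows and lists were chosen with earlier results of these data known.

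Steps of the fold enrichment (searched from 0.3 to 0.6), width limits and distances between experiments were added after the lists were seen.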

Additional observations from a re-analysis of the deposited data

How the results depend on the processing

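Alternatives were tried for 10 values, the density ratios, shares and median fold enrichments of RIP-1 and RIP-2. Of 92 alternative values, 87 stayed inside the 95% interval of the value reported. Keeping only peaks at or above the median score of each list moved the other 5. The RIP-1 non-exon density ratio became 0.242, the shared share became 0% in both experiments (0 of 6 and 0 of 83), and the median fold enrichment rose to 8.71 for RIP-1 and 10.1 for RIP-2, as a limit on score must tend to do. The intervals of the shares of 0% were 0 to 39.0% in RIP-1 and 0 to 4.42% in RIP-2. They include the 12.5% and 1.70% reported, so a change in sharing was not shown. Leaving out each window in turn gave RIP-2 mRNA-list density ratios of 1.09 to 1.68. Without window 3, the sparsest in that list, the interval was 1.08 to 2.52 and no longer included 1. Without any other window it did include 1. Leaving out windows, the RIP-1 mRNA-list ratio ranged from 0.194 to 0.398. Assigning peaks by midpoint changed no value. It could not change one, since no member crossed a window edge, and these alternatives are counted among the 87. Taking the widest stretch of chromosome 11 without a peak (3.26 Mb) out of its length, chosen after seeing the data, gave 0.475 and 0.696 for the non-exon ratios. No paired analysis was possible because libraries have no values of their own and an experiment has 1 call. Leaving out a replicate was not possible either, for the same reason. Unknown depth limits every comparison of RIP-1 with RIP-2, and the 6 and 27 mRNA-list segments limit the shares among them.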
